A study of Homo sapiens with 8 samples.

Results

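The 48 genes described here encode proteins that build ribosomes: subunits and factors of RNA polymerase I, proteins of small nucleolar ribonucleoproteins (snoRNPs), processing and assembly factors of the small and the large ribosomal subunit, and nucleolar proteins with several roles. They were taken by symbol from a list of known factors, and all 48 were found among the 26364 genes of the table. RNA was sequenced from MV4-11, an acute myeloid leukemia cell line whose labelled genotype is FLT3-ITD and MLL-AF4, shared by every group. Control cells received DMSO, the solvent. The other groups received 5 µM tranylcypromine (TCP), an inhibitor of the histone demethylase LSD1, 0.5 µM palbociclib, an inhibitor of the cell cycle kinases CDK4 and CDK6, or both drugs at these doses (combination). All cells were labelled as day 4. The methods describe the CDK6 inhibitor being given alone on the first day and the LSD1 inhibitor being added to it afterwards. By that account palbociclib came before TCP in the combination. A figure legend of the study gives 4 days for the pair and for each drug alone. How long the cells of either TCP group were exposed to TCP is therefore not settled. In all, each group held 2 libraries, so the question of the design was how the 8 transcriptomes differed with each drug alone and with the pair.

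Ribosome production begins in the nucleolus, where RNA polymerase I transcribes a long precursor of ribosomal RNA. Small nucleolar RNAs guide chemical modification of the precursor, carried out by box C/D particles that methylate riboses and by H/ACA particles that convert uridine to pseudouridine, while assembly factors fold, cleave and export the pre-ribosomes. The process is known to be tied to growth and proliferation, and many of its genes are known targets of the transcription factor MYC.

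Levels are given in TPM, the deposited unit, which corrects for gene length and gives each gene as a share of the transcripts counted in its library. Ribosomal RNA itself was not measured, because the libraries were made with an mRNA kit. A gene entered the tests if 2 or more libraries held at least 1 TPM of it, which left 14151 genes with all 48 members among them. Log2 fold changes are differences of log2(TPM + 1), so that changes of weakly expressed genes come out too small, and are given with standard errors (SE) and Benjamini-Hochberg adjusted p-values from limma over all genes tested. A gene passed the test at an adjusted p below 0.05, and a differentially expressed gene (DEG) changed by at least 1 log2 unit at an adjusted p below 0.01. The labels do not say whether the 2 libraries of a group came from separate cultures, so the p-values measure only the spread between these samples, which may be technical.

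The libraries of a group correlated with a Pearson r of 0.983 to 0.991 across genes, and 13320 to 13640 genes reached 1 TPM. The leukemia markers FLT3, HOXA9, MEIS1, CD33, PTPRC and SPI1 were present, and KIT was near 1 TPM. Palbociclib replicate 2 stood apart in markers of stromal cells: 8 such genes summed to 87.0 TPM there, 5.95 TPM in the other palbociclib library, 1.84 and 7.57 TPM in control cells, 2.15 and 7.40 TPM in TCP and 10.7 and 18.2 TPM in the combination. The study's methods describe culture of its cell lines on the stromal line HS-5. The part of these markers in the values below was not tested. The palbociclib medians over the members, by role and over the other genes of the pathway are given with and without that library.

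In control cells the members spanned a wide range of levels, from UTP20 at a mean of 11.0 TPM to nucleolin (NCL) at 1412 TPM, which ranked 80th among all genes of the table. Together the 48 transcripts summed to 6309 and 6878 TPM in the control libraries and to 6301 and 7122 TPM in the TCP libraries. The sums were 3901 and 3688 TPM in the palbociclib libraries and 3596 and 3554 TPM in the combination libraries. Both groups that received palbociclib therefore lay below every library without it, and the members' share of all TPM went from between 0.631% and 0.688% in control cells to between 0.355% and 0.360% in the combination. In bulk RNA, fewer cells of a type and less RNA per cell cannot be told apart, and a TPM value is a share rather than an amount per cell.

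With palbociclib alone 41 of the 48 members fell and none rose, against 30.2% of all genes tested that fell and 14.8% that rose. The median log2 fold change was -0.68, a 1.60-fold lower level, beside -0.16 over all genes. In 45 members both palbociclib libraries lay below both control libraries, which held for 49.7% of all genes. The 7 DEGs were FBL, NPM1, LYAR, NCL, TCOF1, EBNA1BP2 and UTP20, all lower, beside 4.56% of all genes that were DEGs in that direction. Without palbociclib replicate 2, the library with the high stromal markers, the median of the members was -0.65, beside -0.14 over all genes. By role, the medians without that library were -0.60 for the polymerase I genes and -0.64 for the snoRNP genes. They were -0.57 for the small-subunit factors, -0.68 for the large-subunit factors and -0.99 for the multifunctional proteins.

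With the combination 42 members fell and none rose, against 37.6% of all genes tested that fell and 15.9% that rose. The median was -0.78, or 1.72-fold lower, beside -0.22 over all genes, and in 46 members both combination libraries lay below both control libraries (54.2% of all genes). The DEGs were the 7 named above plus GAR1, WDR43 and DDX10, that is 10 members or 20.8%, beside 7.82% of all genes. The changes lay close together: the quartiles were 1.51-fold and 1.89-fold lower, and the largest change was 2.98-fold. Against TCP alone the combination was lower in 44 members (33.8% of all genes) with a median of -0.78, and 10 were DEGs (6.7% of all genes).

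The size of these changes depended on scaling. When libraries were rescaled by median ratios, the median of all genes moved from -0.22 to -0.01 under the combination and the median of the members from -0.78 to -0.55, with 36 members passing in all, 35 of them lower and NOP10 higher, beside 23.4% of all genes tested that were lower under this scaling. The same scaling turned the split of all calls under the combination from 70.2% lower to 49.9% lower, and that under palbociclib from 67.2% to 49.7%.

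TCP alone changed no member by limma (0 of 48, beside 0.431% of all genes that changed in either direction). None had an unadjusted p below 0.05 either, with or without the replicate number as a block, whereas 8.77% of all genes did. The 48 log2 fold changes lay between -0.12 and 0.14 with a median of 0.01, and the smallest adjusted p was 0.790. The 95% confidence intervals of the members reached from -0.42 to 0.49 at their widest, with a median reach of 0.25 to either side of the estimate. MPHOSPH10 and NOC3L were the members in which both TCP libraries exceeded both control libraries, which held for 12.4% of all genes.

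**Figure D1:**
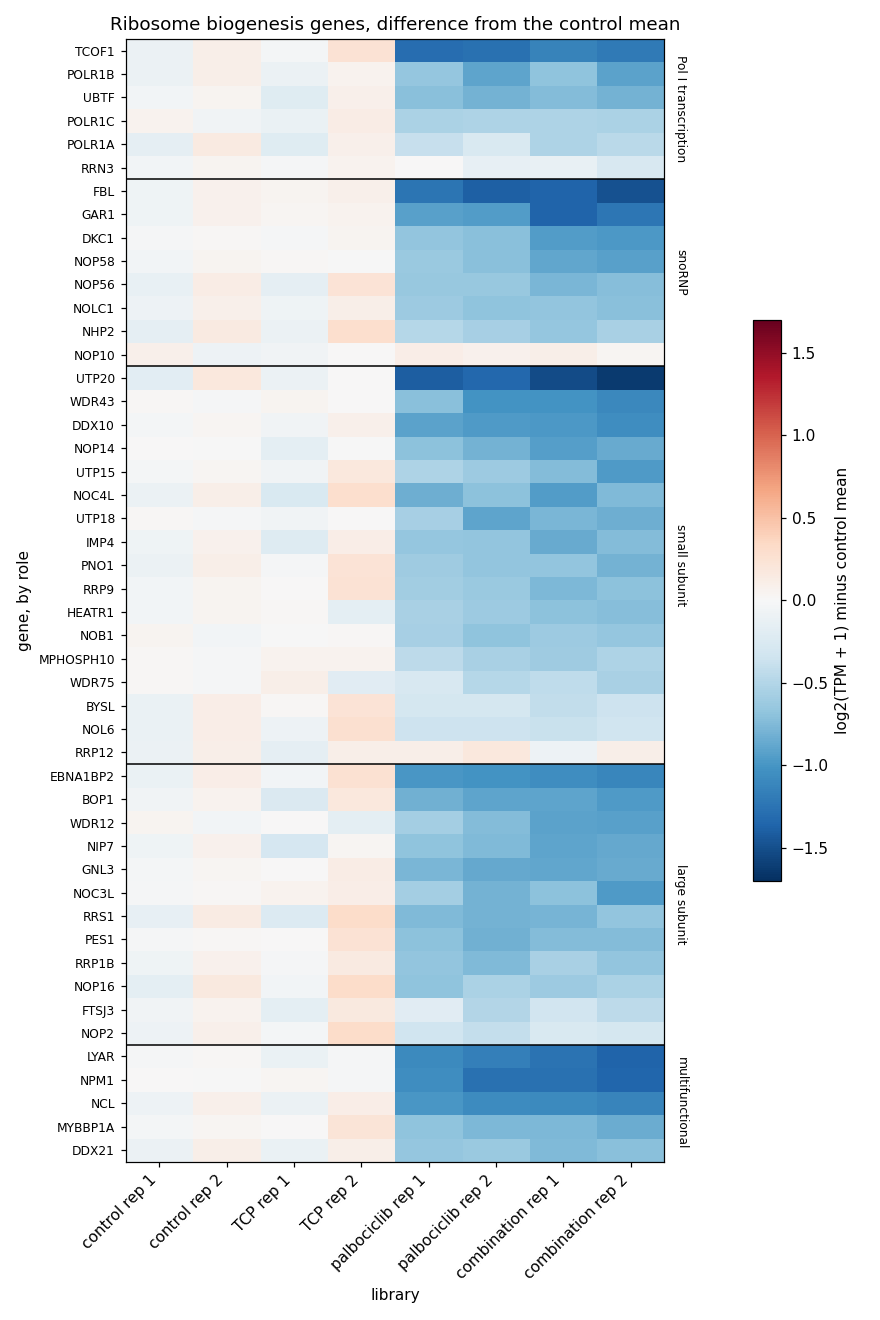
Heat map of the 48 members (rows, ordered by role) in the 8 libraries (columns), with color giving the difference of log2(TPM + 1) from the mean of the 2 control libraries. The palbociclib and combination columns are lower than control in nearly every row, RRN3, NOP10 and RRP12 stand out as near control, and the TCP columns stay near control.

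**Figure D2:**
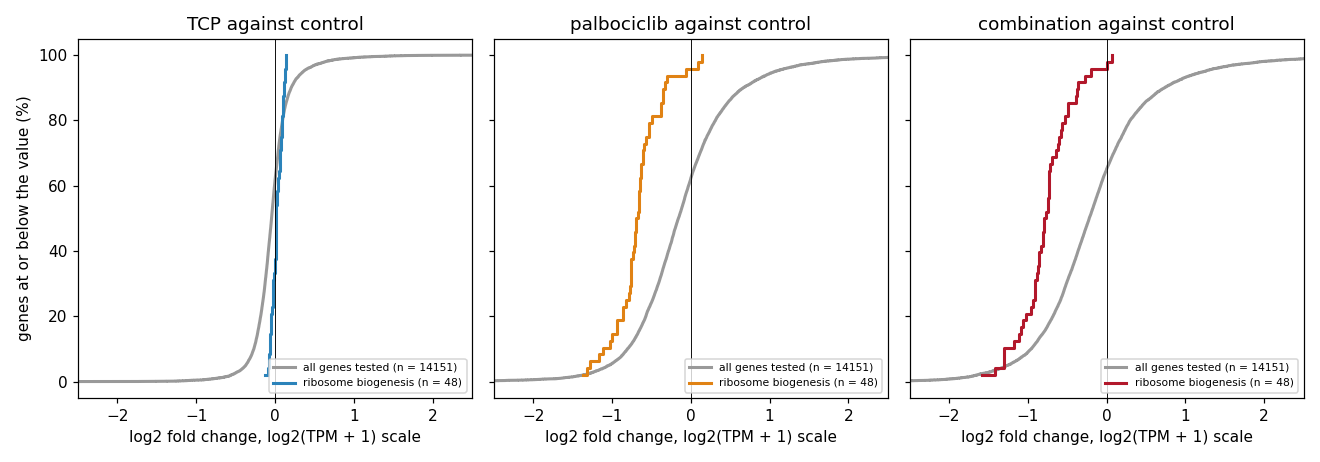
Cumulative share of genes (vertical axis, percent) at or below each log2 fold change (horizontal axis, log2(TPM + 1) scale) for the members and for all 14151 genes tested, 1 panel per comparison. The members' curve lies to the left under palbociclib (median -0.68 against -0.16) and the combination (-0.78 against -0.22) and near 0 under TCP (0.01 against -0.04).

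Of the 6 genes of RNA polymerase I transcription, 4 fell with palbociclib and 5 with the combination, beside 30.2% and 37.6% of all genes tested. The median log2 fold change was -0.65 in either case, beside -0.16 and -0.22 over all genes. TCOF1 encodes treacle, a nucleolar protein that supports transcription of ribosomal genes (GRCh37 chromosome 5, 149737192 to 149779871). It measured 64.0 and 73.3 TPM in control cells, 67.2 and 81.0 TPM in TCP, 27.4 and 27.9 TPM with palbociclib and 30.6 and 29.1 TPM in the combination. The means were 40.3% of control with palbociclib and 43.5% with the combination, and the combination libraries sat slightly above those with palbociclib alone. The log2 fold change was -1.28 (adjusted p = 0.000314) with palbociclib and -1.17 (SE 0.11, adjusted p = 0.000242) with the combination.

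UBTF, the upstream binding factor that keeps ribosomal genes open for polymerase I, measured 87.5 and 93.9 TPM in control cells, 78.8 and 96.1 TPM in TCP, 54.8 and 51.4 TPM with palbociclib and 53.9 and 51.6 TPM in the combination. POLR1B, the second largest subunit of the enzyme, measured 38.4 and 43.9 TPM in control cells, 38.1 and 43.0 TPM in TCP, 25.7 and 21.7 TPM with palbociclib and 25.1 and 21.5 TPM in the combination. In both genes the palbociclib and combination libraries covered nearly the same range, below all libraries without palbociclib. The log2 fold changes under the combination were -0.77 for UBTF (SE 0.11, adjusted p = 0.0011) and -0.80 for POLR1B (SE 0.13, adjusted p = 0.00227). POLR1C, a subunit that polymerase I shares with polymerase III, fell by 0.53 on the log2 scale (SE 0.10, adjusted p = 0.00367), from 88.3 and 81.7 TPM in control cells to 58.9 and 58.4 TPM in the combination, with 78.2 and 93.1 TPM in TCP and 58.1 and 58.5 TPM with palbociclib. This call was lost under median-ratio scaling, where the value was -0.30.

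POLR1A, the largest catalytic subunit, varied more between replicates. It measured 27.0 and 33.4 TPM in control cells, 25.9 and 31.9 TPM in TCP, 22.6 and 25 TPM with palbociclib and 20.5 and 21.6 TPM in the combination. The groups with and without palbociclib did not overlap, but the gap to the lower control library was small. The value under palbociclib was -0.32 (adjusted p = 0.10, or 0.0183 with the replicate number as a block), and under the combination it fell by 0.50 (SE 0.14, adjusted p = 0.0215). That last call was lost under either rescaling, without the low-value filter, and without control replicate 2 or either combination library, with values between -0.53 and -0.27.

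RRN3, the initiation factor that brings polymerase I to its promoter, did not follow the others. It measured 40.8 and 43.4 TPM in control cells, 41.5 and 44 TPM in TCP, 42.3 and 38.3 TPM with palbociclib and 38.5 and 34.8 TPM in the combination. The palbociclib libraries overlapped control and the combination libraries lay just below it. The log2 fold change was -0.06 with palbociclib (adjusted p = 0.606) and -0.20 with the combination (95% confidence interval -0.42 to 0.02, adjusted p = 0.113), and its sign turned under both rescalings. RRN3 has 4 annotated pseudogenes by name, of which RRN3P1, RRN3P2 and RRN3P3 were listed at between 1.78 and 6.95 TPM. Whether reads were split among the copies was not tested.

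The snoRNP proteins showed the clearest contrast within 1 particle. Of the 8 genes, 7 fell under palbociclib and under the combination (30.2% and 37.6% of all genes tested), with medians of -0.66 and -0.83. Fibrillarin (FBL), the methyltransferase of box C/D particles (GRCh37 chromosome 19, 40325098 to 40337019), measured 309 and 345 TPM in control cells, 339 and 348 TPM in TCP, 138 and 124 TPM with palbociclib and 127 and 116 TPM in the combination. Every library with palbociclib held less than every library without it by a wide margin, at 40.1% of control with palbociclib and 37.2% with the combination. The log2 fold changes were -1.31 (adjusted p = 0.000133) and -1.42 (SE 0.09, adjusted p = 5.61e-05).

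NOP56 and NOP58 form the scaffold of the same particle. NOP56 measured 319 and 379 TPM in control cells, 312 and 408 TPM in TCP, 222 and 222 TPM with palbociclib and 203 and 211 TPM in the combination. NOP58 measured 138 and 146 TPM, 144 and 141 TPM, 91.1 and 86.7 TPM, and 76.3 and 74.9 TPM in the same order of groups. Both genes had their lowest libraries in the combination, without overlap with palbociclib alone. NOP56 fell by 0.75 (SE 0.14, adjusted p = 0.00354) and NOP58 by 0.90 (SE 0.07, adjusted p = 0.000102) on the log2 scale with the combination.

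The H/ACA particle has 4 core proteins, and they did not move together. GAR1 (GRCh37 chromosome 4, 110736666 to 110745896) measured 70.5 and 78.2 TPM in control cells, 76.0 and 77.7 TPM in TCP, 38.6 and 37.9 TPM with palbociclib and 28.2 and 31.1 TPM in the combination. DKC1, the pseudouridine synthase dyskerin (GRCh37 chromosome X, 153991017 to 154005964), measured 94.6 and 97.7 TPM, 94.4 and 99.3 TPM, 59.9 and 58.6 TPM, and 49.3 and 48.6 TPM. In both genes the combination libraries lay below the palbociclib libraries, which in turn lay below control. The log2 fold changes with the combination were -1.30 for GAR1 (SE 0.09, adjusted p = 6.44e-05) and -0.96 for DKC1 (SE 0.07, adjusted p = 7.96e-05).

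NHP2 measured 217 and 267 TPM in control cells and 153 and 164 TPM in the combination, a log2 fold change of -0.60 (SE 0.15, adjusted p = 0.0119), and 28.0% of its annotated exon bases lie opposite exons of RMND5B. Its call was lost under median-ratio scaling (-0.37, adjusted p = 0.107), without the low-value filter, and without control replicate 2 (-0.45) or combination replicate 1 (-0.55). NOP10, the smallest protein of the particle (GRCh37 chromosome 15, 34631360 to 34635381), measured 131 and 117 TPM in control cells, 119 and 125 TPM in TCP, 134 and 131 TPM with palbociclib and 133 and 127 TPM in the combination. Its libraries overlapped across control and combination, at 105% of the control mean while GAR1 stood at 39.9%. The log2 fold change of NOP10 was 0.07 with the combination (95% confidence interval -0.12 to 0.26, adjusted p = 0.487). Under median-ratio scaling, which moved the median of all genes by 0.21, it was 0.30 (adjusted p = 0.0291).

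**Figure D3:**
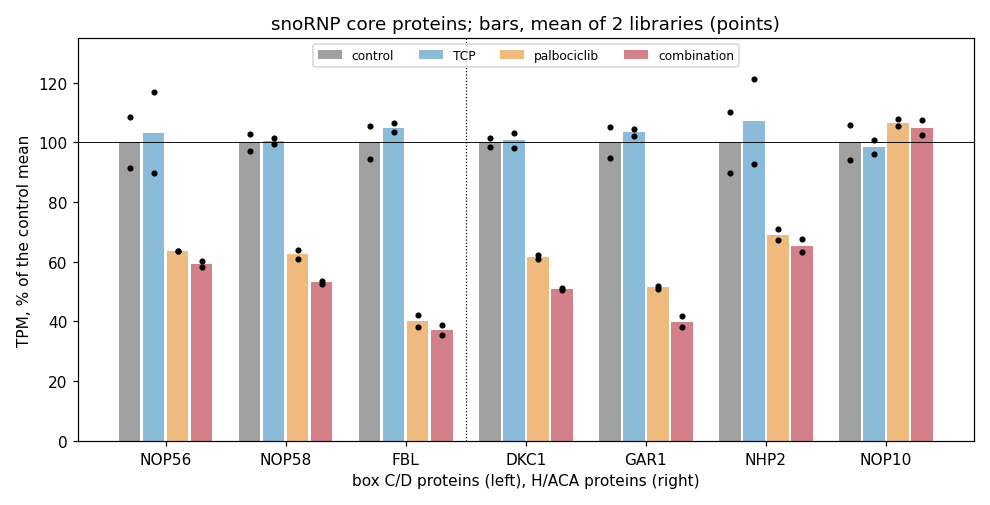
TPM of 7 snoRNP core proteins as a percentage of the control mean (vertical axis), box C/D proteins on the left and H/ACA proteins on the right, with bars for the mean of 2 libraries and points for each library. FBL falls to 37.2% and GAR1 to 39.9% of control in the combination, whereas NOP10 stays at 105%.

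The small-subunit factors were the largest group. Under palbociclib 14 of 17 fell (30.2% of all genes tested) and under the combination 15 of 17 (37.6%), with medians of -0.63 and -0.74. UTP20, a large scaffold protein of the small-subunit processome (GRCh37 chromosome 12, 101673883 to 101780396), had the lowest control level and the largest change. It measured 9.51 and 12.6 TPM in control cells, 10.2 and 11.0 TPM in TCP, 3.54 and 3.74 TPM with palbociclib and 3.16 and 2.86 TPM in the combination. All 4 libraries with palbociclib lay far below the others, and the log2 fold changes were -1.36 (SE 0.15, adjusted p = 0.000632) and -1.58 (SE 0.15, adjusted p = 0.000226).

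WDR43, a processome protein that also binds RNA in the nucleus (GRCh37 chromosome 2, 29117533 to 29171085), measured 89.7 and 86.6 TPM in control cells, 90.9 and 88.7 TPM in TCP, 53.5 and 42.9 TPM with palbociclib and 43.0 and 40.7 TPM in the combination. DDX10, an RNA helicase, measured 37.7 and 39.8 TPM, 37.0 and 41.0 TPM, 20.0 and 19.4 TPM, and 19.1 and 18.1 TPM in that order. The combination libraries lay just below those with palbociclib alone in DDX10, and the ranges overlapped in WDR43. The log2 fold changes with the combination were -1.06 for WDR43 (SE 0.11, adjusted p = 0.000313) and -1.02 for DDX10 (SE 0.09, adjusted p = 0.000161).

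HEATR1, which is needed for transcription of ribosomal DNA and early cleavage, measured 44.2 and 46.8 TPM in control cells, 46.0 and 40.4 TPM in TCP, 30.7 and 29.2 TPM with palbociclib and 27.6 and 27.0 TPM in the combination, and 23.1% of its exon bases lie opposite LGALS8. NOB1, the nuclease that makes the last cut of the small-subunit RNA, measured 118 and 110 TPM, 113 and 116 TPM, 76.5 and 70.3 TPM, and 74.0 and 71.4 TPM. Neither gene overlapped between the libraries with and without palbociclib. HEATR1 fell by 0.71 (SE 0.09, adjusted p = 0.000727) and NOB1 by 0.64 (SE 0.08, adjusted p = 0.000577) with the combination. Exon bases also lie opposite exons of other genes in NOP14 (20.7%), NOB1 (20.4%), NOP16 (18.6%), NIP7 (18.4%), POLR1C (18.3%) and EBNA1BP2 (13.7%), among others. The part of such overlaps in the values was not tested.

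Of the remaining small-subunit factors, NOP14, NOC4L, UTP15, UTP18, IMP4, PNO1, RRP9, MPHOSPH10 and WDR75 fell by between 0.49 (WDR75) and 0.90 (NOP14) on the log2 scale with the combination. The call of WDR75 was lost under both rescalings (-0.27 in each), without the low-value filter, and without either control library or combination replicate 2 (-0.51 to -0.43). BYSL, an assembly factor, fell with the combination (-0.39, adjusted p = 0.0203), and its value was -0.30 with palbociclib (adjusted p = 0.0572, or 0.0175 with the block). The combination call of BYSL was lost under quantile normalization (-0.18, adjusted p = 0.212) and median-ratio scaling (-0.16, adjusted p = 0.326), without the low-value filter, and without control replicate 2 or either combination library (-0.42 to -0.28). NOL6 was at -0.35 with palbociclib (adjusted p = 0.0688, or 0.0265 with the block) and at -0.36 with the combination (adjusted p = 0.0578, or 0.0221 with the block). RRP12, an export factor of pre-ribosomes, measured 28.5 and 33.0 TPM in control cells, 27.5 and 33.0 TPM in TCP, 33.0 and 34.7 TPM with palbociclib and 28.7 and 32.9 TPM in the combination. The ranges of control and combination nearly coincided, and the log2 fold change was 0.00 (95% confidence interval -0.29 to 0.30, adjusted p = 0.981).

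Among the 12 large-subunit factors, 11 fell under palbociclib and 10 under the combination, beside 30.2% and 37.6% of all genes tested. The medians were -0.71 and -0.78. EBNA1BP2, an early assembly factor (GRCh37 chromosome 1, 43629846 to 43736607), measured 103 and 121 TPM in control cells, 108 and 133 TPM in TCP, 55.6 and 54.8 TPM with palbociclib and 53.0 and 51.2 TPM in the combination. It was below 56 TPM in every library with palbociclib and above 100 TPM in every library without it. The log2 fold change was -1.0 (adjusted p = 0.000873) with palbociclib and -1.08 (SE 0.12, adjusted p = 0.000409) with the combination.

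BOP1 and PES1 belong, with WDR12, to a complex that matures the large-subunit RNA. BOP1 measured 24.1 and 26.1 TPM in control cells, 21.0 and 28.6 TPM in TCP, 13.8 and 13.1 TPM with palbociclib and 13.0 and 12.4 TPM in the combination. PES1 measured 84.3 and 86.8 TPM, 85.9 and 101 TPM, 52.4 and 48.3 TPM, and 51.0 and 51.2 TPM. All 3 proteins of the complex fell with the combination, BOP1 by 0.93 (SE 0.14, adjusted p = 0.00181), PES1 by 0.73 (SE 0.10, adjusted p = 0.000838) and WDR12 by 0.91 on the log2 scale.

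NOP2, a methyltransferase of the large-subunit RNA, measured 65.3 and 74.2 TPM in control cells, 68.3 and 86.8 TPM in TCP, 54.8 and 52.2 TPM with palbociclib and 58.3 and 56.6 TPM in the combination. The combination libraries lay above those with palbociclib alone and below control. NOP2 fell with palbociclib (-0.37, adjusted p = 0.0442), and its value with the combination was -0.27 (SE 0.12, adjusted p = 0.102). In the annotation, 54.4% of its exon bases are shared on the same strand with another gene, and its calls changed under several alternatives. The factors NOP16, NOC3L, RRP1B, RRS1, NIP7 and GNL3 fell by between 0.58 (NOP16) and 0.88 (NIP7) with the combination, and FTSJ3 was at -0.38 (adjusted p = 0.0602). The call of NOP16 was lost under quantile normalization (-0.39) and median-ratio scaling (-0.35), and without control replicate 2 (-0.42) or either combination library. That of RRS1 was lost under median-ratio scaling (-0.51, adjusted p = 0.0752), and without control replicate 2 or combination replicate 1, and both were lost without the low-value filter.

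All 5 multifunctional nucleolar proteins fell under palbociclib and the combination, beside 30.2% and 37.6% of all genes tested. Their medians were -1.03 and -1.11, and they include the most abundant members. Nucleolin (NCL, GRCh37 chromosome 2, 232318242 to 232348352), a histone and RNA chaperone of the nucleolus, measured 1326 and 1497 TPM in control cells, 1312 and 1526 TPM in TCP, 707 and 673 TPM with palbociclib and 664 and 644 TPM in the combination. Nucleophosmin (NPM1, GRCh37 chromosome 5, 170814120 to 170838814), a chaperone often mutated in acute myeloid leukemia, measured 721 and 716 TPM, 736 and 710 TPM, 344 and 297 TPM, and 298 and 282 TPM. The means with palbociclib were 48.9% of control for NCL and 44.5% for NPM1, and with the combination 46.3% and 40.4%, with no overlap between libraries with and without palbociclib. The log2 fold changes with the combination were -1.11 for NCL (SE 0.10, adjusted p = 0.00017) and -1.31 for NPM1 (SE 0.09, adjusted p = 6.14e-05). The annotation names 49 pseudogenes of NPM1, none of which had a value of its own among the genes listed. Whether such copies affected the reads counted for NPM1 was not tested.

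LYAR, a nucleolar zinc finger protein (GRCh37 chromosome 4, 4269428 to 4291881), measured 68.9 and 70.6 TPM in control cells, 64.7 and 69.0 TPM in TCP, 32.5 and 30.7 TPM with palbociclib and 28.8 and 26.5 TPM in the combination. It had the smallest adjusted p of all members with the combination, at a log2 fold change of -1.31 (SE 0.08, adjusted p = 5.23e-05). The helicase DDX21 fell by 0.73 and MYBBP1A, a nucleolar MYB-binding protein, by 0.80 with the combination.

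**Figure D4:**
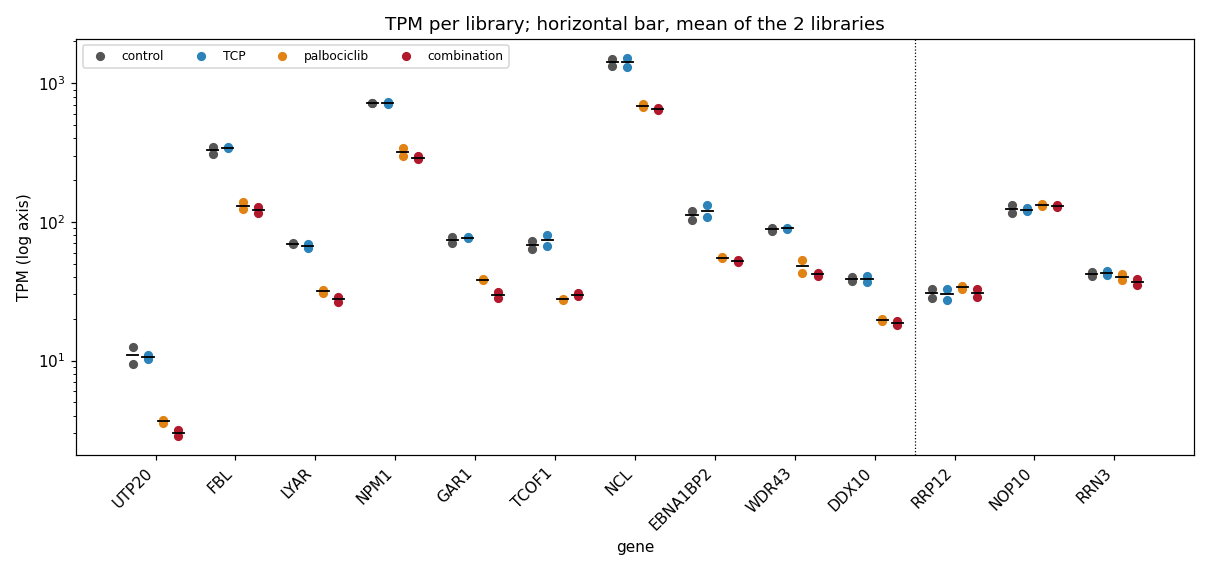
TPM (vertical log axis) of named members (horizontal axis) in each library, colored by group, with a horizontal bar for the mean of 2 libraries. The 10 DEGs of the combination are lower in all 4 libraries with palbociclib, and the 3 genes right of the dotted line, with the smallest changes, overlap with control or lie close to it.

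The combination and palbociclib alone were compared directly to ask what the addition of TCP changed. No member passed by limma (0 of 48, beside 3.49% of all genes), and 4 had an unadjusted p below 0.05, all lower, that is 8.33% beside 17.5% of all genes. Without palbociclib replicate 2, again none passed (0.714% of all genes), and 7 members (14.6%) had an unadjusted p below 0.05, beside 14.7% of all genes. The median difference was -0.09, beside -0.07 over all genes. The estimate for the combination lay below that for palbociclib in 41 members (85.4%), beside 65.4% of all genes. In 22 members both combination libraries lay below both palbociclib libraries (37.2% of all genes), and in TCOF1 and NOP2 both lay above (16.6%). With the replicate number as a block, 2 members passed by limma. GAR1 differed by -0.36 (95% confidence interval without the block -0.56 to -0.15, adjusted p = 0.0319 with the block and 0.0792 without). DKC1 differed by -0.27 (interval -0.43 to -0.11, adjusted p = 0.0440 and 0.0906). The share of all genes that passed with the block is not given here, so these calls say nothing of the members as a set. The interaction of the drugs asks whether the combination differed from the sum of the single effects on the log2 scale. It passed in no member by limma, with a smallest adjusted p of 0.570, and in no gene of all genes tested (0.0%). In 3 members the unadjusted p was below 0.05 (6.25%, beside 6.39% of all genes). The median was -0.11, beside -0.03 over all genes. The estimate lay below 0 in 43 of the 48 members, beside 55.7% of all genes, which is a description and not a test.

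The other genes of the pathway, from lists of known factors, were mostly lower as well. Of 93 further genes of ribosome biogenesis, 72 fell under palbociclib and 76 under the combination, beside 30.2% and 37.6% of all genes tested. None rose, and none changed with TCP. The medians were -0.56 with palbociclib and -0.68 with the combination, beside -0.16 and -0.22 over all genes. Without palbociclib replicate 2, the median of the 93 under palbociclib was -0.52, beside -0.14 over all genes tested. Among 15 further genes of polymerase I transcription, 13 fell with the combination. TAF1A, a subunit of the promoter selectivity factor, went from 5.75 ± 0.836 TPM (SD, n = 2) to 1.68 ± 0.391 TPM (log2 fold change -1.34, adjusted p = 0.00147 by limma), and the polymerase I subunits TWISTNB (43.1 ± 1.45 to 18.3 ± 1.67 TPM, -1.20) and CD3EAP (40 ± 2.72 to 17.7 ± 1.04 TPM, -1.13) fell as well. Of 35 further small-subunit factors 26 fell, with the acetyltransferase NAT10 (-1.46), NOL11 (-1.18) and RCL1 (-1.17) furthest. Of 43 further large-subunit factors 37 fell, with BRIX1 (246 ± 3.82 to 75.5 ± 5.46 TPM, -1.69), NLE1 (-1.42) and MRTO4 (-1.28) furthest. Of 18 subunits of RNA polymerase III, which makes transfer RNA and the smallest ribosomal RNA, 14 fell with the combination. Their median was -0.45, beside -0.22 over all genes, of which 37.6% fell.

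Genes of proliferation and MYC moved in the same samples, and their part in the values above was not tested. All 30 genes of a list for the S and G2/M phases of the cell cycle fell under palbociclib and under the combination. This held for 30.2% and 37.6% of all genes tested. The medians of the 30 genes were -1.16 and -1.65. Without palbociclib replicate 2 their median under palbociclib was -1.10, beside -0.14 over all genes. Their summed level was 4775 and 5557 TPM in control cells, 4414 and 5392 TPM in TCP, 2425 and 2372 TPM with palbociclib and 1714 and 1839 TPM in the combination. MYC measured 862 ± 3.84 TPM (SD, n = 2) in control cells, 720 ± 16.2 TPM in TCP, 462 ± 7.6 TPM with palbociclib and 451 ± 28.2 TPM in the combination. It fell by 0.90 with palbociclib and by 0.94 with the combination (adjusted p = 9.14e-05 by limma), and its value with TCP was -0.26 (adjusted p = 0.274).

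Promoter sequence was examined because many members moved together. RefSeq promoters of GRCh38.p14, 250 bases before to 50 bases after the start, were matched for 40 of the 48 members and searched on both strands for 5 motifs. CACGTG, the palindromic E-box bound by MYC with MAX, was present in 16 of 40 (40%), beside 10.2% of the promoters of 9671 genes tested and 7.43% of all 27305 promoters. CCAAT, the NF-Y box, was present in 40% of members and 36.8% of the genes tested, GGGCGG, the GC box of SP1, in 77.5% and 68.6%, GCATGCG, the core of the NRF1 site, in 12.5% and 6.54%, and TTCCCGC, part of E2F sites, in 7.5% and 10.1%. Within 40 bases of the start, a window chosen after the positions were seen, the E-box was present in 15 of 40 members (37.5%) and in 3.38% of the genes tested. Of the DEGs of the combination, GAR1, NCL, NPM1, LYAR and DDX10 lack the E-box in the 300 bases searched, and TCOF1 had no matched promoter. Windows of 90 bases, 60 before and 30 from the start, are printed below. They are given for the DEGs with the E-box inside that window (FBL, WDR43 and UTP20), whereas the match of EBNA1BP2 lies further upstream. Also printed are NOP10, which has it and did not fall, and GAR1 and DKC1, which fell and lack it in the 300 bases searched. The capitals mark the E-box.
FBL, chr19:39846350-39846439, minus strand: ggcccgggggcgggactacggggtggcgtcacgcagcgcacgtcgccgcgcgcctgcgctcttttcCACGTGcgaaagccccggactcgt
WDR43, chr2:28894607-28894696, plus strand: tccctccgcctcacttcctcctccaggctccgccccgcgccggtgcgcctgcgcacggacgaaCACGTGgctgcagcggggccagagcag
UTP20, chr12:101280045-101280134, plus strand: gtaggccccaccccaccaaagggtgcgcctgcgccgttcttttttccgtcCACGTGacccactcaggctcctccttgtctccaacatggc
NOP10, chr15:34343107-34343196, minus strand: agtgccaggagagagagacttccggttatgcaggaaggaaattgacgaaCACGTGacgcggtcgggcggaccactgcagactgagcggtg
GAR1, chr4:109815450-109815539, plus strand: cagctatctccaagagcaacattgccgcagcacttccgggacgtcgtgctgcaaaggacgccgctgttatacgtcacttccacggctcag
DKC1, chrX:154762804-154762893, plus strand: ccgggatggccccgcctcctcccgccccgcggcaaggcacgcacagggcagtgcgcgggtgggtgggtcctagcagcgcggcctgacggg

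Members with and without the E-box had similar medians. The median log2 fold change with the combination was -0.80 in the 16 members with the motif and -0.78 in the 24 without it, and with palbociclib the medians were -0.71 and -0.65. With the combination 13 of 16 fell in the first class, NOP10, NOL6 and NOP2 being the others, and 22 of 24 in the second, RRN3 and FTSJ3 being the others. A match is a description of these letters and says nothing of binding.

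Several members carry small nucleolar RNAs in their introns. In the GENCODE annotation lifted to GRCh37, 7 of the 48 members (14.6%) contain a small nucleolar or Cajal body RNA gene, beside 2.59% of 11226 protein-coding genes tested. NCL contains SNORA75, SNORD20 and SNORD82, NOP56 contains SNORA51, SNORD110 and SNORD86, and DKC1 contains SNORA36A and SNORA56, and the rest are POLR1C, NOP58, WDR43 and GNL3. These host genes fell by between 0.53 (POLR1C) and 1.11 (NCL) on the log2 scale with the combination. The small RNAs themselves are not polyadenylated and were not analysed here.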

How the data were processed

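RNA of 8 MV4-11 libraries, 2 per group, was prepared with a stranded mRNA kit. According to the submitters' processing notes, the authors aligned reads to GRCh37 with Subread and used SAMtools 1.9, featureCounts 1.6.4 and DESeq2 1.26.0. The counting annotation and strand setting were not given in the sources used here. The deposited table holds TPM per gene symbol, summing to 1000000 per library, so read depth is unknown and no count test was possible.

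Values were analysed as log2(TPM + 1) with limma 3.58.1 in R 4.3.3 (empirical Bayes with a mean-variance trend, 1 coefficient per group over all 8 libraries, 4 residual degrees of freedom), after keeping the 14151 of 26364 genes at 1 TPM or more in at least 2 libraries, with Benjamini-Hochberg adjustment over all of them. The scripts were tested on simulated data. Same-numbered libraries deviated together across genes (Pearson r of 0.169 to 0.491 over the 6 pairs of groups), so the fit with the replicate number as a block is given where it changes a call.

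The members and all other gene lists were chosen with earlier results of these data known. Values per library were given for the DEGs of the combination, the 3 members with the smallest change under it and preset representatives of each role, and of each other biogenesis list the 3 largest changes were named. NOP58, NHP2, BYSL, NOL6 and other members named outside that rule were chosen after their values were seen. Exon overlaps, snoRNA genes and coordinates came from GENCODE v44 lifted to GRCh37, and promoters from RefSeq.

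Alternatives were a pseudocount of 0.1, no low-value filter, a floor of 5 TPM on the mean, quantile normalization, median-ratio scaling, the replicate block, only the groups compared, no mean-variance trend, and each library left out. In the fits without 1 library, the lone library of a group was assumed to vary like the other groups.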

Additional observations from a re-analysis of the deposited data

How the results depend on the processing

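The count of members that passed stayed within 1.5 times under every alternative for palbociclib (33 to 44), the combination (36 to 45) and the combination against TCP (39 to 44), and stayed 0 for TCP and the interaction. For the combination against palbociclib, 2 members passed with the replicate block and 0 in the other fits. The block changed no other count of calls by over 1.5 times (44 members passed with palbociclib and 43 with the combination). Quantile normalization gave medians of -0.56 (palbociclib), -0.59 (combination) and -0.63 (combination against TCP), and 6 DEGs with the combination. Median-ratio scaling gave -0.52, -0.55 and -0.60, with 4 DEGs under palbociclib and 5 under the combination. The shares of all genes that were DEGs under either rescaling are not given here, so these counts have no background beside them. By construction, median-ratio scaling divided the control libraries by 1.08 to 1.09 and the combination libraries by 0.917 to 0.929. FBL, GAR1, LYAR, NPM1 and UTP20 were DEGs of the combination in every alternative. Over the libraries left out, the combination against TCP had 9 to 17 DEGs and a median of -0.90 to -0.69. The 17 DEGs and the -0.90 came without TCP replicate 1, and the cause was not tested.

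Members near 0 turned sign. RRN3 with palbociclib was 0.0915 under quantile normalization, 0.0977 under median-ratio scaling and -0.134 to 0.00698 over the libraries left out, and with the combination 0.0190 and 0.0282 under the rescalings. RRP12 with the combination ranged from -0.0994 to 0.108 and NOP10 from -0.0138 to 0.154 over the libraries left out. Of 768 alternative values for the 24 members whose libraries are given by rule, 737 kept their direction and side of the threshold, and the others were for NOP10, NOP2, NOP56, POLR1A, POLR1C, RRN3 and RRP12. Over all 48 members, at least 1 alternative or left-out library ended the palbociclib call of NHP2, NOC4L, NOP16, NOP2, NOP56, RRS1, UTP15 and WDR75 and the combination call of BYSL, NHP2, NOP16, POLR1A, POLR1C, RRS1 and WDR75. With 2 libraries a group, members' 95% confidence intervals reached a median of 0.25 on the log2 scale to either side. The fit on only the groups compared was not run for the interaction.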

Other observations

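The order of the replicates was uneven among the members. Replicate 2 exceeded replicate 1 in 38 of the 48 members in control cells and in 42 in TCP, beside 49.8% and 42.3% of all genes tested, but in 10 with palbociclib and 18 with the combination, beside 43.2% and 46.9%. The 10 most abundant genes took 9.12% to 9.67% of TPM in control and TCP libraries and 14.0% to 15.8% in palbociclib and combination libraries.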
